A study of Mus musculus with 6 samples.

Results

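Cadherins and non-clustered protocadherins were taken as the genes whose symbol is Cdh or Pcdh followed by a number alone, which gave 34 of the 22180 genes measured, 23 cadherins and 11 protocadherins. They were measured on 6 Mouse Gene 2.0 ST arrays in KP1, 1 line of mouse small cell lung cancer cells derived from tumours with Rb, p53 and p130 knocked out. Of these, 3 arrays held cells carrying the Notch1 intracellular domain and GFP from 1 vector (N1ICD), and 3 held cells with the vector for GFP alone (control). All cells were sorted for GFP 48 hours after transfection, so both groups share the line, its deletions, the transfection and the sort. Each group has 3 biological replicates by its sample titles. The promoter of the vector, the species of its Notch1 insert and whether replicates came from separate cultures or transfections are not given in the sources used here, and the p-values measure the spread between these samples.

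Cadherins are calcium-dependent adhesion proteins. The classical ones bind their own kind on neighbouring cells and hold the actin cytoskeleton through beta-catenin and alpha-catenin. They also bind p120-catenin. Type I and type II classical cadherins differ in the pocket of the outermost repeat that grips the partner cell. The non-clustered protocadherins, most of them in the delta group, have other cytoplasmic tails, adhere weakly and are best known from the developing nervous system. In epithelia E-cadherin is the main adhesion molecule, while neural and mesenchymal cells mainly use N-cadherin.

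In N1ICD cells, 9 members rose and 2 fell, and 23 did not pass the test. The rises were Cdh1, Pcdh8, Cdh15, Cdh6, Pcdh1, Pcdh7, Cdh4, Pcdh17 and Cdh13, and they reached 16.3-fold for Cdh1 at its brighter probe set. The falls were Cdh20 and Cdh22. A gene passed when the adjusted p of limma, a linear model fitted over all genes, was under 0.05. By this rule 32.4% of the members were called, against 7.10% of all genes. The share called higher was 3.82% of all genes and the share called lower was 3.27%. The median log2 difference between N1ICD and control was 0.11 over the 34 members and -0.02 over all genes. Values are RMA log2 expression, and each is the brightest probe set of the gene. Since members were picked with earlier results of these arrays known, these shares describe the list only.

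Notch1, the transfected gene, had log2 expression of 8.07, 7.49 and 7.72 on the N1ICD arrays, against 6.35, 6.20 and 5.96 on the control arrays. The groups did not overlap, with Notch1 higher in N1ICD cells as labelled (log2 difference 1.59 ± 0.17 SE, limma adjusted p = 0.000889), though whether its probe set reads the inserted sequence is not known here. An exact two-sided permutation test of Notch1 gave p = 0.1, the smallest value that 3 against 3 arrays allow. Of the 7 neuroendocrine markers measured, 6 (Chga, Chgb, Syp, Insm1, Uchl1 and Ncam1) lay above every array's median gene on all 6 arrays, and Neurod1 lay below it. Of the 7, limma called 2 higher (Chga 0.64, Ncam1 0.53) and 1 lower (Insm1 -0.89). Array medians over genes were 6.14 to 6.24, and correlations between arrays were 0.991 to 0.994 within groups and 0.980 to 0.984 between them.

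**Figure D1:**
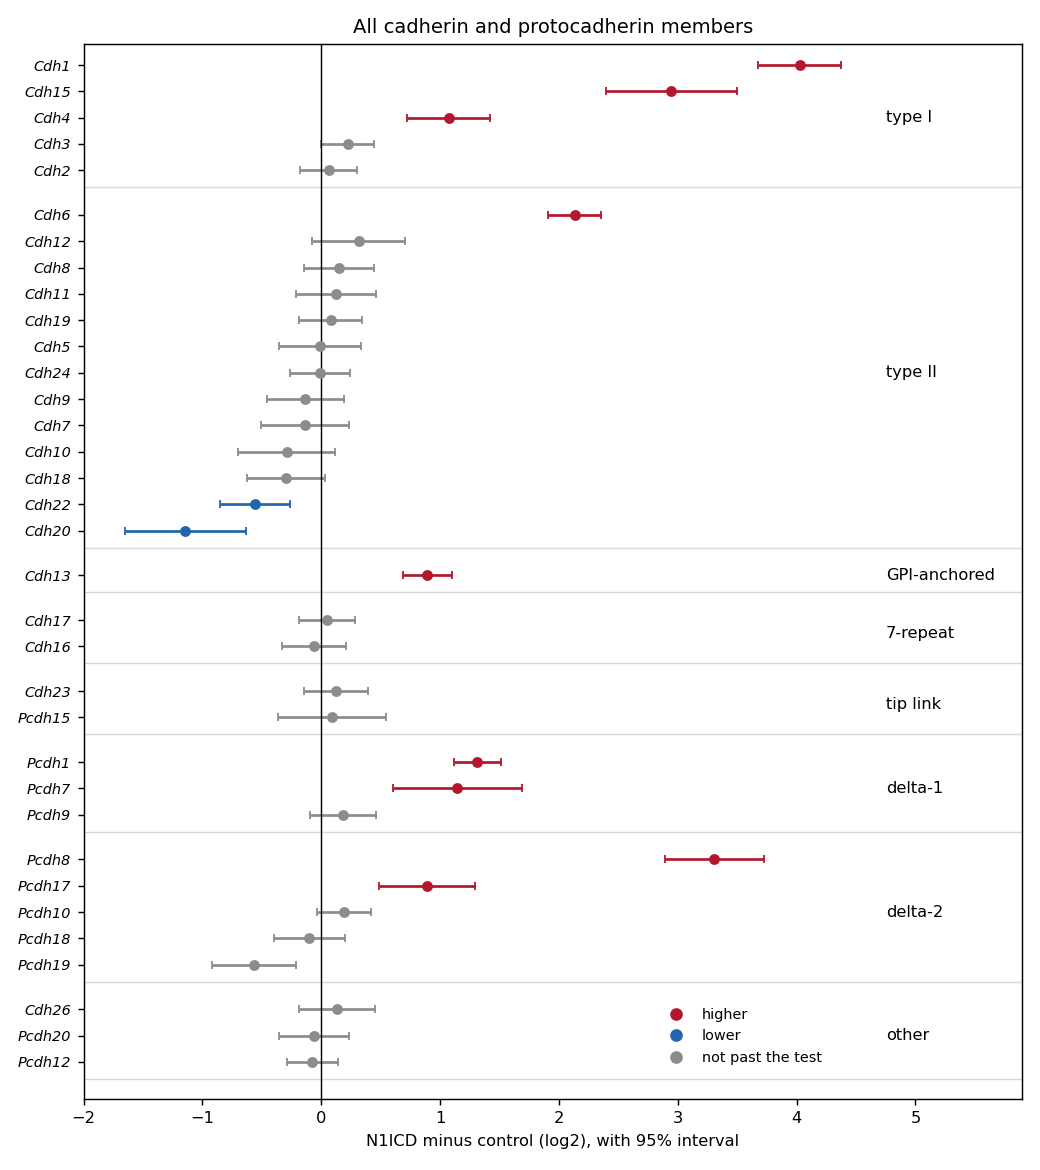
The log2 difference between N1ICD and control (x axis) for all 34 members (rows, ordered by class and size), with 95% intervals of the limma fit. Red points passed the test as higher, blue as lower and grey did not pass; Cdh1 lies farthest right at 4.03 and Cdh20 farthest left at -1.14.

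Type I classical cadherins rose in 3 of 5 members, and none fell (4 of 5 were higher and 0 lower by limma's unadjusted p under 0.05). Cdh1 encodes E-cadherin, the adhesion molecule of epithelial junctions. Its log2 expression was 9.57, 9.12 and 9.38 in N1ICD cells, against 5.26, 5.56 and 5.16 in control cells. All 3 N1ICD arrays lay at least 3.56 log2 units above the highest control array, and all 3 control values were below the median gene of every array. The difference was 4.03 ± 0.15 SE (limma adjusted p = 2.91e-06), and it was 2.54 as the mean over both probe sets of Cdh1. Since the control level is low and background was not measured, the size of the Cdh1 rise is uncertain.

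Cdh15 encodes M-cadherin, which is best known from muscle precursor cells and from cerebellar granule neurons. It measured 9.19, 8.86 and 8.49 in N1ICD cells and 6.40, 5.71 and 5.60 in control cells. The groups lay 2.10 log2 units apart at their closest, and control replicate 1 stood above the other two control arrays. Cdh15 rose 7.71-fold (log2 difference 2.95 ± 0.24 SE, limma adjusted p = 0.000223). Cdh4 encodes R-cadherin, first described in the retina. It measured 10.00, 9.41 and 9.60 in N1ICD cells, against 8.68, 8.56 and 8.56 in control cells. The rise of Cdh4 was smaller, 2.10-fold (1.07 ± 0.15 SE, limma adjusted p = 0.00423), with no overlap of the groups.

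Cdh2 and Cdh3 complete the type I class. Cdh2, the N-cadherin of neural and mesenchymal cells, measured 11.38, 11.09 and 11.23 in N1ICD cells and 11.20, 11.15 and 11.17 in control cells. The groups overlapped, and the 95% interval of the Cdh2 difference ran from -0.18 to 0.30 on the log2 scale (limma adjusted p = 0.819). Cdh3, the P-cadherin of placenta and basal epithelial cells, measured 5.31, 5.15 and 5.21 in N1ICD cells, against 5.03, 5.06 and 4.92 in control cells. Its groups did not overlap, but they lay only 0.09 apart, and the difference of 0.22 ± 0.10 SE did not pass the test (limma adjusted p = 0.251). Non-overlap alone is common on these arrays, since it held for 13 of 34 members and for 26.1% of all genes.

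**Figure D2:**
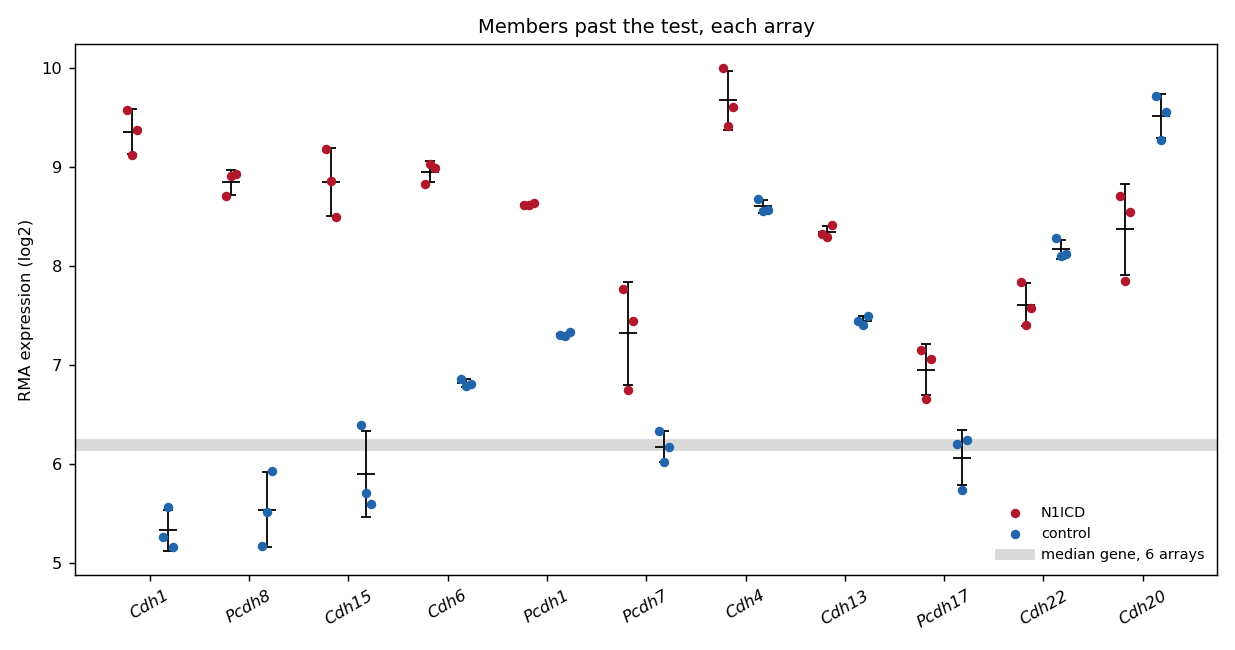
RMA log2 expression (y axis) of the 11 members that passed the test, with a point for each array, the mean as a horizontal tick and the SD as a bar; N1ICD is drawn left of control. The grey band spans the medians of the 6 arrays over genes (6.14 to 6.24). Cdh1 and Pcdh8 have all control points below the band and all N1ICD points above 8.

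A second probe set exists for Cdh1, Cdh2, Cdh4 and Pcdh15. The dimmer Cdh1 probe set read 5.75, 5.75 and 5.76 in N1ICD cells, against 4.89, 4.73 and 4.47 in control cells. Its groups did not overlap, but its difference was 1.05, smaller than the 4.03 of the brighter probe set. It lay below every array's median gene in both groups. Against the array medians over all probe sets (5.59 to 5.72), its N1ICD values lay above and its control values below. The mean over both Cdh1 probe sets differed by 2.54. The dimmer Cdh4 probe set read 6.54, 5.99 and 5.89 in N1ICD cells and 5.89, 5.52 and 5.37 in control cells, a difference of 0.55 with groups that met almost edge to edge. Averaging both lowered the Cdh4 difference to 0.81. For Cdh2 the dimmer probe set read 10.41, 10.21 and 10.21 in N1ICD cells, against 10.04, 10.09 and 10.10 in control cells. In a fit over all probe sets it differed by 0.20 (95% interval -0.04 to 0.44), and here the groups did not overlap. Both Pcdh15 probe sets overlapped between groups, with differences of 0.09 and 0.13.

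**Figure D3:**
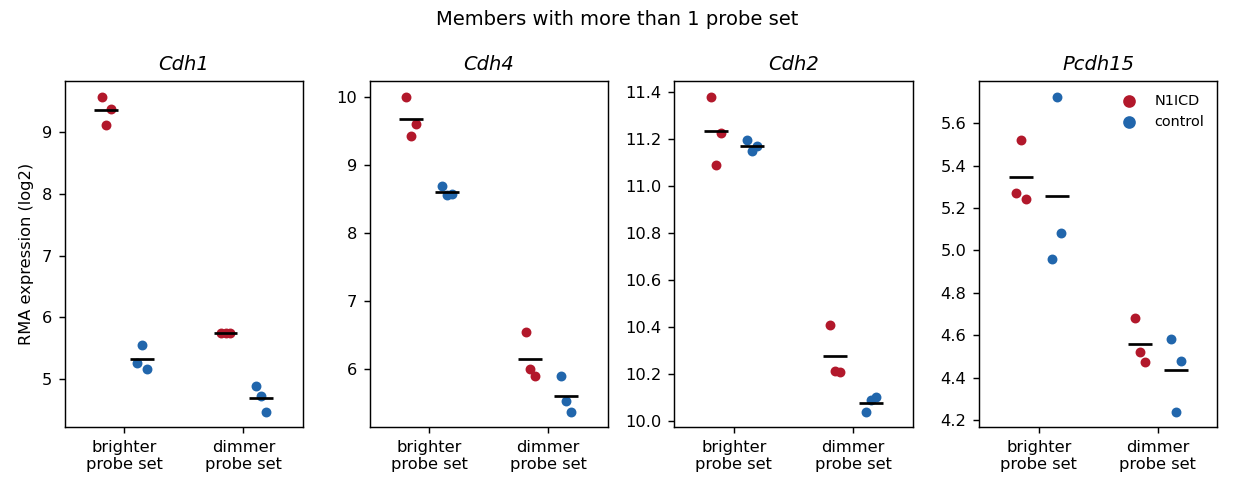
RMA log2 expression (y axes, each on its own scale) at the brighter and the dimmer probe set of the 4 members that have more than 1, with a point per array, N1ICD left of control, and group means as black lines. Both probe sets of Cdh1 and Cdh4 are higher in N1ICD, with the larger difference at the brighter one.

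Type II classical cadherins moved in both directions: 1 of 13 rose, 2 fell and 10 did not pass. Cdh6 encodes K-cadherin, known from the developing kidney and the neural crest. It measured 8.83, 9.03 and 8.99 in N1ICD cells, against 6.86, 6.78 and 6.81 in control cells. Its replicates were tight in both groups, and it rose 4.38-fold (log2 difference 2.13 ± 0.10 SE, limma adjusted p = 8.79e-06).

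Cdh20, a type II cadherin of neural tissue, was the member with the largest fall. It measured 8.71, 7.85 and 8.55 in N1ICD cells, against 9.71, 9.27 and 9.55 in control cells. N1ICD replicate 2 was the lowest of all, yet the highest N1ICD array still lay 0.56 below the lowest control array. The Cdh20 difference was -1.14 ± 0.22 SE (limma adjusted p = 0.0199). Cdh22, a cadherin of pituitary and brain, measured 7.84, 7.41 and 7.58 in N1ICD cells and 8.28, 8.10 and 8.12 in control cells. It fell by 0.56 on the log2 scale (± 0.13 SE, limma adjusted p = 0.0390).

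Both falls were less stable than the larger rises. Cdh20 lost its call without control replicate 1 or control replicate 3 (limma adjusted p up to 0.0624). With each array left out in turn, the Cdh20 difference ran from -1.31 to -0.88. Such fits also called fewer of all genes, 3.71% to 5.55%, against 7.10% with all arrays. The Cdh22 call held only without N1ICD replicate 1, and its highest adjusted p with an array left out was 0.130, without N1ICD replicate 2.

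Among the type II members that did not pass, Cdh11, the cadherin of osteoblasts and mesenchyme, measured 9.35, 8.86 and 9.33 in N1ICD cells, against 8.94, 9.09 and 9.14 in control cells. N1ICD replicate 2 lay below every control array and the other two N1ICD arrays above them, and the 95% interval of the Cdh11 difference was -0.21 to 0.46. Cdh5, the VE-cadherin of endothelial junctions, measured 5.12, 4.60 and 5.00 in N1ICD cells and 4.90, 5.08 and 4.79 in control cells. All its values lay below every array median, and its difference was -0.01 (95% interval -0.36 to 0.34). Cdh24 had a difference of -0.01, and Cdh18 one of -0.30 with overlapping groups. Cdh7, Cdh8, Cdh9, Cdh10, Cdh12 and Cdh19 lay below every array median on all 6 arrays, with differences of -0.29 (Cdh10) to 0.32 (Cdh12).

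Cdh13 encodes T-cadherin, which has no cytoplasmic tail, is held by a glycosylphosphatidylinositol anchor and binds adiponectin. It measured 8.33, 8.29 and 8.41 in N1ICD cells, against 7.44, 7.41 and 7.50 in control cells. The 2 groups were tight and well apart, and Cdh13 rose 1.86-fold (log2 difference 0.89 ± 0.09 SE, limma adjusted p = 0.000792). The cadherins of kidney (Cdh16) and of liver and intestine (Cdh17) differed by -0.06 and 0.05. Cdh23 and Pcdh15, which form the tip links of inner ear hair cells, differed by 0.13 and 0.09, and Cdh26 by 0.13. None of these passed the test, and all 6 arrays were below every array median for each of them.

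Delta-1 protocadherins rose in 2 of 3 members. Pcdh11x lies outside the symbol rule, was counted in a related list below and did not pass the test. Pcdh1, a protocadherin of airway epithelium and brain, had the tightest replicates among the rises. It measured 8.62, 8.61 and 8.64 in N1ICD cells, against 7.30, 7.30 and 7.33 in control cells. The spread within each group was at most 0.02 (SD), and the rise was 2.48-fold (log2 difference 1.31 ± 0.09 SE, limma adjusted p = 7.22e-05).

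Pcdh7, also called BH-protocadherin for brain and heart, measured 7.77, 6.75 and 7.45 in N1ICD cells and 6.33, 6.02 and 6.18 in control cells. N1ICD replicate 2 stood well below the other two, though still above the controls. Its difference of 1.14 ± 0.24 SE passed the test (limma adjusted p = 0.0251). The call of Pcdh7 was lost when control replicate 2 or 3, or N1ICD replicate 1 or 3, was left out (adjusted p up to 0.0848), and the difference was 1.43 without N1ICD replicate 2. Pcdh9 measured 5.57, 5.50 and 5.66 in N1ICD cells, against 5.18, 5.55 and 5.46 in control cells, and did not pass (0.18 ± 0.12 SE, limma adjusted p = 0.467).

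Delta-2 protocadherins rose in 2 of 5 members. Pcdh8, called arcadlin in rat, where neuronal activity induces it at synapses and it draws N-cadherin off the surface, measured 8.70, 8.91 and 8.93 in N1ICD cells. It measured 5.17, 5.51 and 5.93 in control cells, all below every array median. The groups lay 2.78 log2 units apart at their closest, the second widest gap among members after Cdh1. Pcdh8 rose 9.90-fold (log2 difference 3.31 ± 0.18 SE, limma adjusted p = 2.64e-05).

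Pcdh17, a protocadherin of axons and synapses, measured 7.15, 6.66 and 7.06 in N1ICD cells, against 6.21, 5.74 and 6.24 in control cells. Replicate 2 was the lowest of its group on both sides, and the groups did not overlap. The rise was 1.85-fold (0.89 ± 0.18 SE, limma adjusted p = 0.0217), a call lost when control replicate 2 or N1ICD replicates 1 or 3 were left out (limma adjusted p up to 0.0753).

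Pcdh19, the X-linked protocadherin mutated in a human epilepsy, measured 7.08, 6.91 and 6.95 in N1ICD cells and 7.33, 7.90 and 7.42 in control cells. All N1ICD arrays lay below all control arrays, and control replicate 2 stood highest. The Pcdh19 difference of -0.57 ± 0.15 SE did not pass (limma adjusted p = 0.0683), while it passed under 5 alternatives of the processing (adjusted p 0.0247 to 0.0497). Without control replicate 2 it was -0.40 (adjusted p = 0.134). Pcdh10, known as OL-protocadherin, measured 10.18, 10.04 and 10.20 in N1ICD cells, against 9.89, 9.92 and 10.04 in control cells. Its groups overlapped slightly, and its difference was 0.19 (95% interval -0.04 to 0.41). Pcdh18, Pcdh12 and Pcdh20 differed by -0.10, -0.08 and -0.06 and did not pass.

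Of the 34 members, 16 lay below every array's median gene on all 6 arrays, and limma called 0 of them (1, Cdh3, at an unadjusted p under 0.05). The split is not independent of the change, because Cdh1 and Pcdh8 lay below every array median on the control arrays and above it only on the N1ICD arrays. Background was not measured on these values, so a low level here cannot be told from no expression. The 23 members that did not pass had differences between -0.57 and 0.32. In RNA of sorted cell pools, a change in every cell and a change in the share of cells that express a gene cannot be told apart.

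**Figure D4:**
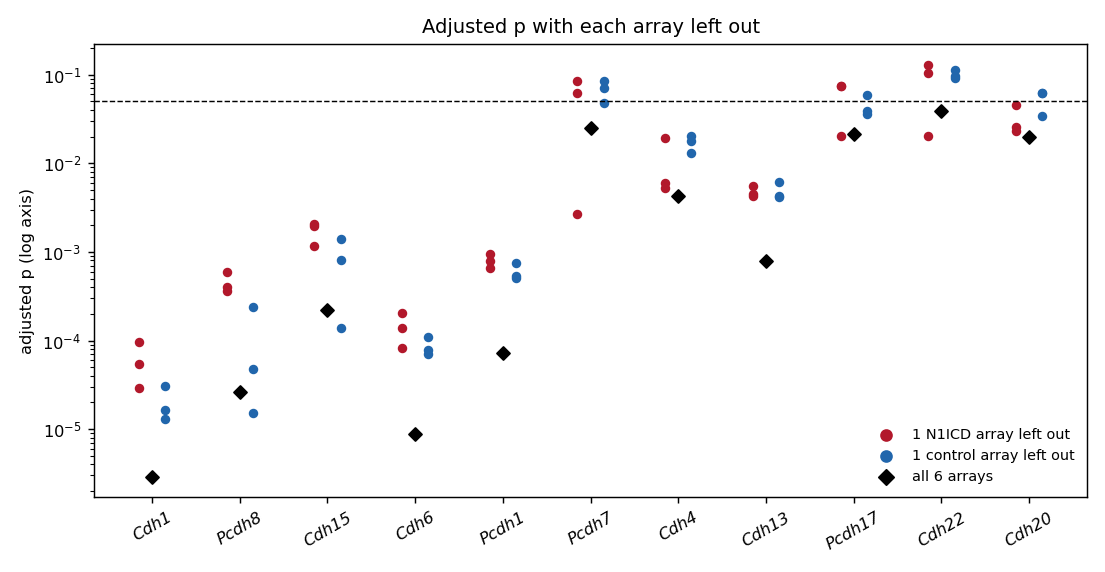
Limma adjusted p (y axis, log scale) of the 11 called members with all 6 arrays (black diamonds) and with each array left out in turn (red, an N1ICD array; blue, a control array). The dashed line is 0.05. Cdh1, Pcdh8, Cdh15, Cdh6, Pcdh1, Cdh4 and Cdh13 stay below it throughout, while Pcdh7, Pcdh17, Cdh22 and Cdh20 each cross it.

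Several members are direct neighbours in the genome, by the gene order of RefSeq's GRCm38.p6 annotation with protein-coding genes counted. Cdh3 and Cdh1 lie side by side on chromosome 8, and their differences were 0.22 and 4.03. On chromosome 15, Cdh6, Cdh9, Cdh10 and Cdh12 follow each other. Of these, Cdh6 rose, and the differences of the next 3 were -0.13, -0.29 and 0.32. In the run Cdh8, Cdh11 and Cdh5 on chromosome 8 the differences were 0.15, 0.12 and -0.01. Over the 8 neighbouring pairs of members, 2 held a called member (Cdh3 with Cdh1, and Cdh6 with Cdh9), and no pair held 2.

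Promoter sequence, taken from RefSeq (GRCm38.p6) as 250 bases before to 50 after each start, was at hand for 22 members, among them 7 of the 11 called. Both strands were searched, with a palindromic match counted once, for TGGGAA, the core of the site of RBPJ, the DNA-binding partner of the Notch1 intracellular domain. The same was done for CACGNG, which covers sites of the HES and HEY repressors that Notch induces, and for CACCTG, the E-box of the SNAI and ZEB repressors. TGGGAA was in 6 of 22 members (27.3%) and in 28.3% of all 27025 genes with a window. CACGNG was in 10 of 22 (45.5%), against 30.3% of all, and CACCTG in 3 of 22 (13.6%), against 22.6%. Cdh1, Cdh4, Cdh13 and Pcdh1 were not scanned. Among the 7 called members that were, Cdh6 held TGGGAA, Pcdh7 held CACCTG, and Cdh15, Cdh20, Cdh22 and Pcdh7 held CACGNG. These matches are letters in a window and no evidence of binding.

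The sequences are the 250 bases before the start of Cdh15, which rose, and of Cdh20, which fell, because both hold a CACGNG match (capitals) that reads CACGTG in the first and CACGGG in the second. Added are the 30 bases of Cdh6 around its TGGGAA match, which lies after the start and reads TTCCCA on the strand of the gene (capitals). All run 5′ to 3′ on the strand of the gene. The Cdh15 stretch is chr8:122848124-122848373 on the plus strand, the Cdh20 stretch is chr1:104768270-104768519 on the plus strand and the Cdh6 stretch is chr15:13173626-13173655 on the minus strand.
Cdh15: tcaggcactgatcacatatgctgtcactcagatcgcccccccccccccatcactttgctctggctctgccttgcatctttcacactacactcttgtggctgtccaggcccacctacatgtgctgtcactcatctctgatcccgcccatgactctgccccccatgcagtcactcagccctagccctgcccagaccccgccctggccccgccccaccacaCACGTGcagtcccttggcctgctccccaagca
Cdh20: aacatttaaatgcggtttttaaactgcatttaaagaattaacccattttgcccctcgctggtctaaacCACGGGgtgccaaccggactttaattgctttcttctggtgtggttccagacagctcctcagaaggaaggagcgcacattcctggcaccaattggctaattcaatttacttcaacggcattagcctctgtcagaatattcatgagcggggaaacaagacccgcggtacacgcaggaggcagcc
Cdh6: tctctggagccgtaaccTTCCCAtcccgag

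Genes that work with cadherins were read from the same fit in 7 lists, with 132 genes measured. Over these lists 15 genes rose and 3 fell. Among 19 catenins and junction adaptors, 3 rose and 1 fell (median difference 0.03). The catenins Ctnnb1, Ctnna1 and Ctnnd1 did not pass the test. Ctnnb1, beta-catenin, differed by -0.06 (95% interval -0.26 to 0.14) with groups barely apart, Ctnna1, alpha-catenin, by 0.01 (-0.25 to 0.27) and Ctnnd1, p120-catenin, by 0.12 (-0.17 to 0.41). Arvcf, a close relative of p120-catenin, measured 9.26, 9.11 and 9.36 in N1ICD cells and 8.26, 8.05 and 8.29 in control cells. The groups did not overlap, and Arvcf rose 2.06-fold (1.04 ± 0.11 SE, limma adjusted p = 0.00108). Nectin3, an immunoglobulin-type adhesion molecule of the same junctions, rose 1.76-fold (0.82 ± 0.09, limma adjusted p = 0.00139). Jup, plakoglobin, rose by 0.49 ± 0.09 and the actin-binding Lima1 fell by 0.58 on the log2 scale. Jup lost its call without 3 of the arrays and Lima1 without 4 (limma adjusted p up to 0.0743 and 0.0873).

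Desmosomal cadherins and their partners held 3 rises among 14 genes (median difference 0.14), and none of the rises was a desmoglein or desmocollin. Perp, a desmosomal membrane protein and p53 target, measured 9.34, 9.13 and 9.06 in N1ICD cells, against 5.09, 5.37 and 4.74 in control cells. With 3.69 log2 units between the nearest arrays, it rose 17.3-fold (4.11 ± 0.16 SE, limma adjusted p = 3.99e-06). Pkp1, the plakophilin of desmosomal plaques, measured 9.85, 9.68 and 9.42 in N1ICD cells and 7.32, 6.61 and 6.83 in control cells, a rise of 6.63-fold (limma adjusted p = 0.000103). Dsp, desmoplakin, rose by 0.99 ± 0.19, a call lost without control replicates 1 or 3 or N1ICD replicate 3 (limma adjusted p up to 0.0601). Of the 14 genes, 9 lay below every array median on all arrays.

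Other cadherin superfamily genes, outside the numbered symbols, rose in 4 of 19 cases (median difference -0.05). Dchs2, a ligand of the Fat cadherins by homology to fly Dachsous, measured 8.49, 8.31 and 8.22 in N1ICD cells and 6.15, 6.32 and 6.34 in control cells. Fat1, a giant cadherin that restrains growth and shapes actin, measured 9.99, 9.55 and 9.60 in N1ICD cells, against 7.89, 7.71 and 7.69 in control cells. Neither gene had overlapping groups, and they rose 4.21-fold and 3.86-fold (limma adjusted p = 2.08e-05 and 0.000103). Celsr1, a planar cell polarity cadherin, rose 3.18-fold (1.67 ± 0.17 SE) and Fat4 2.37-fold (1.24 ± 0.13 SE), with limma adjusted p = 0.000772 and 0.000889. These 4 calls held without any 1 array.

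Clustered protocadherins, which give single neurons their surface identity, were measured beside the numbered ones. Of 23 measured, all Pcdhb genes but Pcdhga10, limma called 0 (1 at an unadjusted p under 0.05, lower), with differences between -0.37 and 0.30 and a median of -0.04. The difference between this share and that of the non-clustered genes was not tested. The Pcdhb genes resemble each other closely, so their probe sets may not separate them.

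Regulators of the E-cadherin gene held 2 rises and no fall among 22 (median difference -0.00; by limma's unadjusted p under 0.05, 3 higher and 2 lower). Snai2, a repressor of Cdh1, measured 9.67, 9.63 and 9.36 in N1ICD cells, against 9.18, 8.92 and 8.81 in control cells. It rose by 0.58 ± 0.13 SE, a call lost without 4 of the arrays (limma adjusted p up to 0.140). Grhl3, an epithelial activator, rose by 0.45 ± 0.10, a call lost without 5 of the arrays (limma adjusted p up to 0.130). Zeb1, a repressor of Cdh1, measured 8.58, 8.16 and 8.41 in N1ICD cells and 8.70, 8.79 and 8.65 in control cells. Its groups did not overlap, but the difference of -0.33 ± 0.12 did not pass (limma adjusted p = 0.183), and Snai1 differed by 0.11 (limma adjusted p = 0.777). Zeb2 was not analysed here.

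Shedding and turnover genes held 1 rise among 17, the protease Furin, which matures classical cadherins (0.50 ± 0.10, lost without 5 of the arrays, limma adjusted p up to 0.0916). Among 18 signaling genes that meet cadherins, 2 rose and 2 fell. Fgfr2, a growth factor receptor of epithelia, rose 4.98-fold (2.32 ± 0.16 SE, limma adjusted p = 0.000111), and Fgfr1, which N-cadherin can engage, rose by 0.54 ± 0.10 (lost without 3 of the arrays, limma adjusted p up to 0.0649). The receptor phosphatases Ptprm and Ptpru fell by 1.20 and 0.90 on the log2 scale (limma adjusted p = 0.00888 and 0.0389). Ptpru lost its call without 5 of the arrays (limma adjusted p up to 0.126).

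**Figure D5:**
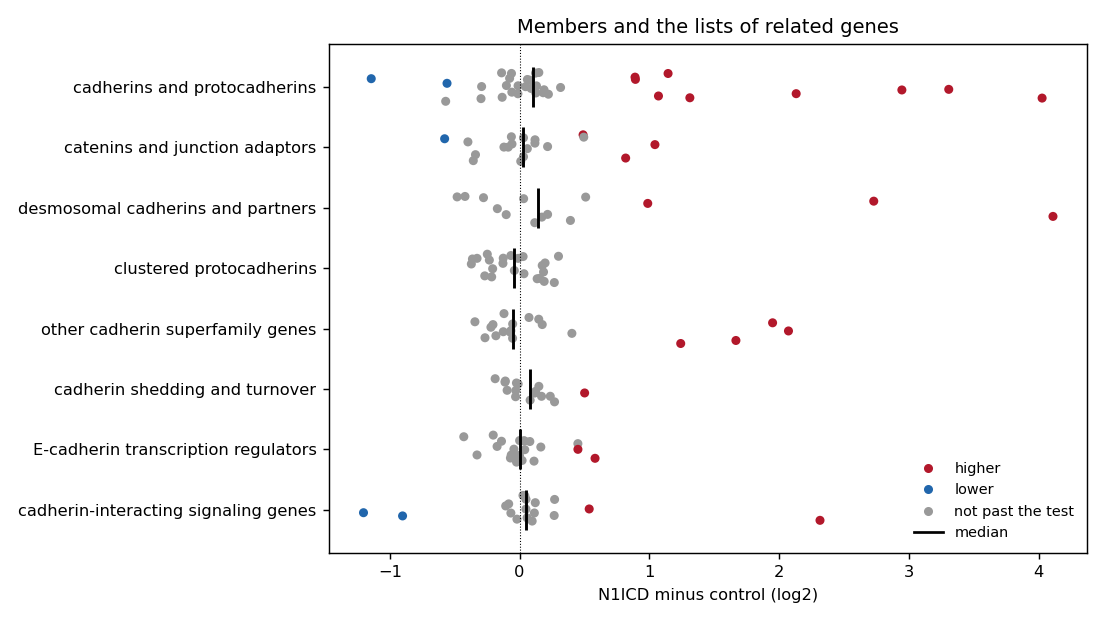
The log2 difference between N1ICD and control (x axis) of each gene in the members and in 7 lists of related genes (rows; vertical scatter is only for legibility), with the median as a black line. Red points passed the test as higher, blue as lower and grey did not pass. The member row has a median of 0.11, with 4 points above 2, and the clustered protocadherins have no coloured point.

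Markers of other cell types were set beside these values. The neuroendocrine markers of the line itself averaged 9.66 to 9.72 on the N1ICD arrays and 9.61 to 9.69 on the control arrays. Among their calls, Insm1 was kept without any 1 array, while Chga lost its call without 4 of the arrays and Ncam1 without 5 (limma adjusted p up to 0.0638 and 0.0955). The endothelial list of 8 rose in 2 (Kdr 3.04 and Tek 1.06), and its mean log2 level was 6.05 to 6.17 on the N1ICD arrays and 5.50 to 5.60 on the control arrays. Pecam1, Tie1, Emcn, Esam, Cldn5 and Vwf, like Cdh5, did not pass, and 5 of the 8 lay below every array median. By limma's unadjusted p under 0.05, 3 of the 8 were higher. Of 7 alveolar and airway markers 2 rose (Scgb1a1 1.23 and Hopx 0.38) and Sftpc fell by 1.71 on the log2 scale, the call of Hopx being lost with any of the 6 arrays left out (limma adjusted p up to 0.161), with mean levels of 5.68 to 5.84 in N1ICD cells and 5.69 to 5.79 in control cells. Fibroblast markers gave 1 rise and 1 fall among 8 (Pdgfrb 0.89, and Pdgfra -0.74, lost without 4 of the arrays), with mean levels of 5.81 to 5.86 in N1ICD cells and 5.78 to 5.92 in control cells. Macrophage markers gave 1 rise among 8 (Lyz2 0.52, lost with any of the 6 arrays left out), with means of 4.76 to 4.82 in N1ICD cells and 4.71 to 4.82 in control cells, and 7 of the 8 below every array median. Schwann and glial markers gave 1 fall among 4 (Mbp -0.49, lost without 3 of the arrays), with means of 5.63 to 5.72 in N1ICD cells and 5.68 to 5.80 in control cells. The part of other cell types in the cadherin differences was not tested.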

How the data were processed

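Total RNA of the 6 samples was hybridised to 1 array each. The log2 values are those the authors deposited, made by RMA per the submitters' processing notes, with no version given. RMA gives all arrays a common distribution of probe values before summarising them, so a change in total RNA per cell would not show. The summarised values still differed slightly, with array medians over probe sets of 5.59 to 5.72. No sample values were left out. The files hold 41345 probe sets, of which 23521 carry 1 symbol in the platform annotation, 1814 several and 16010 none. A gene was represented by its brightest single-symbol probe set by the mean over 6 arrays (22180 genes, 1082 with more than 1). Differences, N1ICD minus control, came from limma's moderated linear model (version 3.58.1, under R 4.3.3), without covariates; p-values are two-sided and Benjamini-Hochberg adjusted over all 22180 genes, with a threshold of 0.05. The ± after a difference is the SE of that fit, intervals are 95%, and dim genes were kept. The fit was tested on simulated data. Precision is limited by 3 arrays per group. Promoters were scanned and figures drawn in Python with pandas 2.3.3 and matplotlib 3.10.9.

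The members and lists were chosen with earlier results of these data known. Named were Notch1, every member, the second probe sets, the called genes of each related list (at most 4) and Ctnnb1, Ctnna1, Ctnnd1, Zeb1, Zeb2, Snai1 and Snai2. Called marker genes and the neuroendocrine and endothelial markers were named to complete small counts, after their values were seen. A further 8 listed symbols could not be matched and were not analysed here. The alternatives were another quantile normalization, equal array medians, 2 filters on dim genes, the mean over probe sets, every probe set tested, an intensity trend with robust eBayes, array weights, no moderation, a threshold of 0.01, the replicate number as a block and each array left out.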

Additional observations from a re-analysis of the deposited data

How the results depend on the processing

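Cdh1, Pcdh8, Cdh15, Cdh6, Pcdh1 and Cdh13 kept their direction and their call under all 17 alternatives, and Cdh4 under all but the unmoderated statistic of the same linear model (adjusted p = 0.0771). The number of members that rose was 9 with all arrays, 6 to 9 under the alternatives and 7 to 9 with 1 array left out. The number that fell, 2, is less certain. It was 1 after another quantile normalization, 0 with every probe set tested, without moderation and at a threshold of 0.01, and 0 to 2 with 1 array left out (3 members were lower at an unadjusted p under 0.05 in limma with all arrays). Pcdh19 joined the falls with equal array medians, both filters on dim genes, the intensity trend and array weights, which gave 3. Calls over all genes dropped in some of the same settings. From 7.10% in the main fit, they went to 3.18% with every probe set tested. They were 2.70% without moderation and 3.01% at a threshold of 0.01, but 7.03% after another quantile normalization. With 1 array left out they were 3.71% to 5.55%. Without moderation the Notch1 difference of 1.59 had an adjusted p of 0.0510. In the 7 related lists, 15 rises and 3 falls became 9 and 1 with every probe set tested and 9 and 1 at a threshold of 0.01, while falls were 0 without moderation and 6 with genes below the median left out. With 1 array left out, rises were 9 to 15 and falls 1 to 4. No called member or Notch1 changed direction. Equal array medians moved the median of all genes to -0.04, from -0.02.

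With the replicate number as a block (replicate block), 9 members rose and 2 fell, and the related lists held 16 rises and 2 falls. The labels give no pairing beyond the number. Across genes, deviations from group means correlated at 0.23, 0.008 and 0.20 between same-numbered samples, and at -0.23 to 0.06 between differently numbered ones. Whether the numbers mark pairs is not known here, and the main fit did not use them. The number of arrays and the lack of a background measure for dim probe sets limit all values.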

Other observations

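A further probe set carries the symbols Pcdh10 and 1700027H10Rik together and belongs in no comparison above. It read 5.63, 4.91 and 5.51 in N1ICD cells, against 5.16, 5.21 and 5.14 in control cells, with overlapping groups and a difference of 0.18.

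Members were unevenly spread over the replicates within each group. N1ICD replicate 2 had the lowest value of its group for 17 of 34 members, and for 31.0% of all genes. Control replicate 2 had the lowest of its group for 17 of 34, and for 34.6% of all genes. Replicate 1 was often the highest. This held for 18 of 34 members in N1ICD, against 34.9% of all genes, and 19 of 34 in control, against 37.2%. Among the 9 rises, N1ICD replicate 2 was lowest of its group in 6, and control replicate 2 was lowest of its group in 6. In both falls, replicate 2 was the lowest of its group on either side. Genes are not independent replicates.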
